A study of Mus musculus with 16 samples.

Results

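DNA repair and damage signalling genes were followed in CT26 cells in which Sep15, TR1 or both were knocked down. The list was a set of named genes taken from the repair pathways, and no rule on measured values picked them. Earlier results of these data were known when the list was chosen. It held 45 genes, of which 44 had a probe set on the array, out of 18193 genes with a probe set. The member without one, in the annotation used here, was Xrcc2. CT26 is a colon carcinoma line from a BALB/c mouse. Cells were stably transfected with pU6-m3, a vector in which a U6 promoter drives the hairpin, and 4 lines resulted: the control with the empty vector, shSep15 with the hairpin against Sep15 (gene symbol Selenof), shTR1 with the hairpin against thioredoxin reductase 1 (Txnrd1), and shTR1/shSep15 with both. All lines, the control included, carried the vector and its selection. Total RNA of 4 samples per line was hybridised to Affymetrix whole-genome mouse arrays, 16 in all, and the values below are log2 signals as the authors deposited them. No source used here says whether the 4 samples of a line were grown apart, and every p-value below therefore reflects only how these samples differ from one another, which may be technical.

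Repair genes are commonly grouped by the lesion they act on. Breaks of both strands are joined end to end by the Ku proteins, DNA-PKcs, Xrcc4 and Lig4, or copied from the sister chromatid by homologous recombination with Brca1 and Brca2. Mismatch repair corrects errors of replication, base excision repair removes oxidised and deaminated bases, nucleotide excision repair cuts out bulky adducts, and the Fanconi proteins handle crosslinks between strands. The kinases Atm and Atr report damage to Chek2 and Chek1, which hold the cell cycle. TR1 keeps thioredoxin reduced, and thioredoxin in turn supplies electrons to ribonucleotide reductase, the enzyme that makes the building blocks for replication and repair. Sep15 is a selenoprotein of the endoplasmic reticulum. Many recombination and replication-linked repair genes are transcribed around S phase, in which E2F factors act.

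The hairpins define the lines, so their target sequences are shown first, as the labels give them, in DNA letters and lower case because no part is singled out.
Sep15 target: acagaagagttccatttaa
TR1 target: atcgctctgacaagcttattag

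The promoters are shown where they hold an E2F motif, since the same genes are set against S-phase genes below. The motif was searched as TTTCCCGC, TTTCGCGC, TTTGCCGC and TTTGGCGC on both strands, in a window of 300 bases that ends 50 bases after the start site (RefSeq, build GRCm38.p6). Of the 44 members, 35 had an entry, and 8 of these (22.9%) held the motif in the window of at least 1 start site. Among all 27025 genes with an entry, of any gene type, the share was 2.6%, and among 15 S-phase genes it was 53.3%. The 8 members were Brca2, Rad51c, Chek2, Xrcc6, Msh3, Msh6, Lig1 and Fancg. For 5 of them, 30 bases around a match ahead of the start site are printed, with the motif in capitals (in Msh3 a pair of overlapping matches).
Brca2, chr5:150522442-150522471, plus strand: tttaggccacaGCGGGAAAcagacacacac
Chek2, chr5:110839820-110839849, plus strand: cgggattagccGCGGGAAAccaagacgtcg
Fancg, chr4:43010335-43010364, minus strand: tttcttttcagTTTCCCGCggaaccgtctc
Msh3, chr13:92355185-92355214, minus strand: gccgtcaagTTTGGCGCGAAAtcgcagccc
Xrcc6, chr15:82016312-82016341, plus strand: agggggtggaaGCGGGAAAtgcgagtgggc
The letters TTTGAA of the CHR element, known from promoters of mitotic genes, were searched likewise and were present in 1 of the 35 members (2.86%), namely Ercc5, which held no E2F letters, against 20.2% of all genes. The windows of Pms2, Xrcc4, Lig4 and Ercc4, the members that passed a test below, held neither set of letters. A match is a description of the letters and not of a bound site.

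The hairpin targets followed their labels with an exception. Selenof lay between 7.34 and 8.29 in the 8 arrays with its hairpin and between 10.78 and 12.36 in the other 8. Txnrd1 lay between 7.18 and 7.91 in shTR1/shSep15, and in shTR1 it was 7.85 and 7.89 in replicates 1 and 3 but 10.57 and 9.71 in replicates 2 and 4, within or above the control range of 9.45 to 10.39. Calls that were lost without these 2 arrays of the line labelled shTR1 are named beside the result. Of the epithelial markers, Cdh1, the defining one, stayed between 2.31 and 2.80 in all arrays, and Krt20 and Krt18 were lower in shSep15 than in control (log2 differences -3.28 and -2.68, adjusted p = 0.00155 and 0.039), as was the fibroblast marker Col3a1 (-3.04, adjusted p = 0.0307), while Krt18 differed by 1.635 in shTR1 (adjusted p = 0.328). All 8 epithelial markers were lower in shSep15 than in control, with a median difference of -0.21 (range -3.28 to -0.08). Of the 8, 2 were past the threshold (2.72% of all genes), and of all genes 46.3% were higher in that comparison. The epithelial mean was 4.12 to 4.32 in the shSep15 arrays, all below the control range of 4.81 to 5.39, and 4.66 to 5.495 in the lines with the shTR1 hairpin, and its part in the results below was not tested. The other list means per array were 3.68 to 4.33 for leukocytes, 4.17 to 4.63 for endothelium and 6.14 to 7.84 for fibroblasts.

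In shSep15 and in shTR1, end joining held the members with the largest positive differences. In these lines 4 of its 5 members (Xrcc4, Xrcc5, Lig4 and Prkdc) were higher than control at an unadjusted p under 0.05 (10.1% and 9.08% of all genes), and in shTR1/shSep15 1 member (Xrcc5) was (6.2% of all genes). None passed the adjusted threshold of 0.05 against control in any line. The comparisons share the control arrays, so each control array enters all of them. The median difference over the 5 members was 0.76, 0.96 and 0.42 in the 3 lines, beside -0.02, -0.03 and 0.01 over all genes. Without control replicate 2 the medians were 0.61, 0.63 and -0.06, so the last turned its sign. The 5 other end joining genes measured (Nhej1, Poll, Polm, Aplf and Polq) had medians of 0.12, 0.19 and 0.23. None of these genes had an unadjusted p under 0.05 against control in any line. In bulk RNA, fewer cells with a transcript and less of it per cell cannot be told apart.

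Lig4, the ligase that seals the joined ends, had log2 signals of 5.61, 3.87, 4.91 and 4.61 in control, 6.21, 5.63, 5.93 and 6.02 in shSep15, 6.14, 5.93, 6.79 and 5.82 in shTR1, and 5.53, 4.24, 5.68 and 5.22 in shTR1/shSep15. All 8 arrays of the lines with 1 hairpin lay above all control arrays, while the shTR1/shSep15 arrays overlapped control. The difference from control was 1.2 ± 0.35 (SE) in shSep15, a 2.3-fold higher signal (adjusted p = 0.118), 1.42 ± 0.35 in shTR1, 2.68-fold (adjusted p = 0.135), and 0.42 ± 0.35 in shTR1/shSep15 (adjusted p = 0.824). Control replicate 1 held the highest control value, and without it shSep15 and shTR1 passed, with differences of 1.49 (adjusted p = 0.0376) and 1.71 (adjusted p = 0.0474).

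Xrcc4, the partner that stabilises Lig4, gave 6.59, 6.89, 6.61 and 6.59 in control, 7.25, 7.01, 7.19 and 7.03 in shSep15, 6.84, 6.95, 7.13 and 6.96 in shTR1, and 6.66, 6.18, 6.75 and 6.57 in shTR1/shSep15. Every shSep15 array lay above every control array and above every shTR1/shSep15 array. The shSep15 line was higher than shTR1/shSep15 by 0.58 ± 0.12, 1.49-fold, which was the only member past the threshold in that comparison (adjusted p = 0.0201). This call ended when shSep15 replicate 1 or 3 or shTR1/shSep15 replicate 2 or 4 was left out (adjusted p = 0.064, 0.0704, 0.0512 and 0.0534). Against control the difference was 0.45 ± 0.12 in shSep15 (adjusted p = 0.0843), 0.3 ± 0.12 in shTR1 (adjusted p = 0.368) and -0.13 ± 0.12 in shTR1/shSep15 (adjusted p = 0.854). The shSep15 difference passed without control replicate 2, whose 6.89 stood above the other controls (0.52, adjusted p = 0.0434), and without shTR1/shSep15 replicate 2 (0.45, adjusted p = 0.0318).

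Xrcc5, the larger Ku subunit that grips broken ends, measured 6.43, 5.54, 5.904 and 6.08 in control, 7.15, 6.43, 6.69 and 6.74 in shSep15, 6.41, 6.898, 7.4 and 7.098 in shTR1, and 6.83, 6.62, 7.01 and 6.85 in shTR1/shSep15. Its mean was above control in all 3 lines, by 0.76 ± 0.22, 0.96 ± 0.22 and 0.84 ± 0.22, that is 1.7-fold, 1.95-fold and 1.79-fold, with adjusted p of 0.104, 0.102 and 0.307. Only in shTR1/shSep15 did no array overlap with control. Without control replicate 1 the shSep15 and shTR1 differences passed (0.91, adjusted p = 0.0472, and 1.11, adjusted p = 0.0474), and without shTR1 replicate 1 the latter did too (1.14, adjusted p = 0.0338). Xrcc6, the other Ku subunit, had 8.34, 7.26, 8.68 and 8.13 in control, 8.07, 7.54, 7.84 and 8.04 in shSep15, 7.89, 8.24, 8.15 and 7.79 in shTR1, and 8.29, 8.03, 8.19 and 8.66 in shTR1/shSep15. Its 3 differences from control were -0.23 ± 0.24, -0.08 ± 0.24 and 0.19 ± 0.24, with adjusted p of 0.763, 0.898 and 0.907. Without control replicate 2 the shTR1/shSep15 difference was -0.09.

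Prkdc, the catalytic subunit of DNA-PK, measured 6.402, 3.99, 6.36 and 5.61 in control, 7.05, 6.19, 7.09 and 6.87 in shSep15, 6.49, 7.14, 6.75 and 6.63 in shTR1, and 6.12, 5.69, 6.16 and 6.21 in shTR1/shSep15. Control replicate 2 was far below the other controls, and all shTR1 arrays lay above all control arrays. The differences were 1.21 ± 0.41, 1.17 ± 0.41 and 0.46 ± 0.41 in the 3 lines, with adjusted p of 0.181, 0.282 and 0.84. Without control replicate 2 the shSep15 difference was 0.68 (adjusted p = 0.206), that in shTR1 was 0.63 (adjusted p = 0.348) and that in shTR1/shSep15 turned to -0.08. The same array had the lowest S-phase mean of all 16 arrays, 7.13. Its beta-actin 3′ minus 5′ control difference, a measure of RNA quality, was the highest, 0.786 against 0.376 to 0.563 in the other arrays. Its Gapdh 3′ minus 5′ difference, -0.113, lay within the -0.203 to 0.029 of the others. The part of the beta-actin value in the results was not tested.

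**Figure D1:**
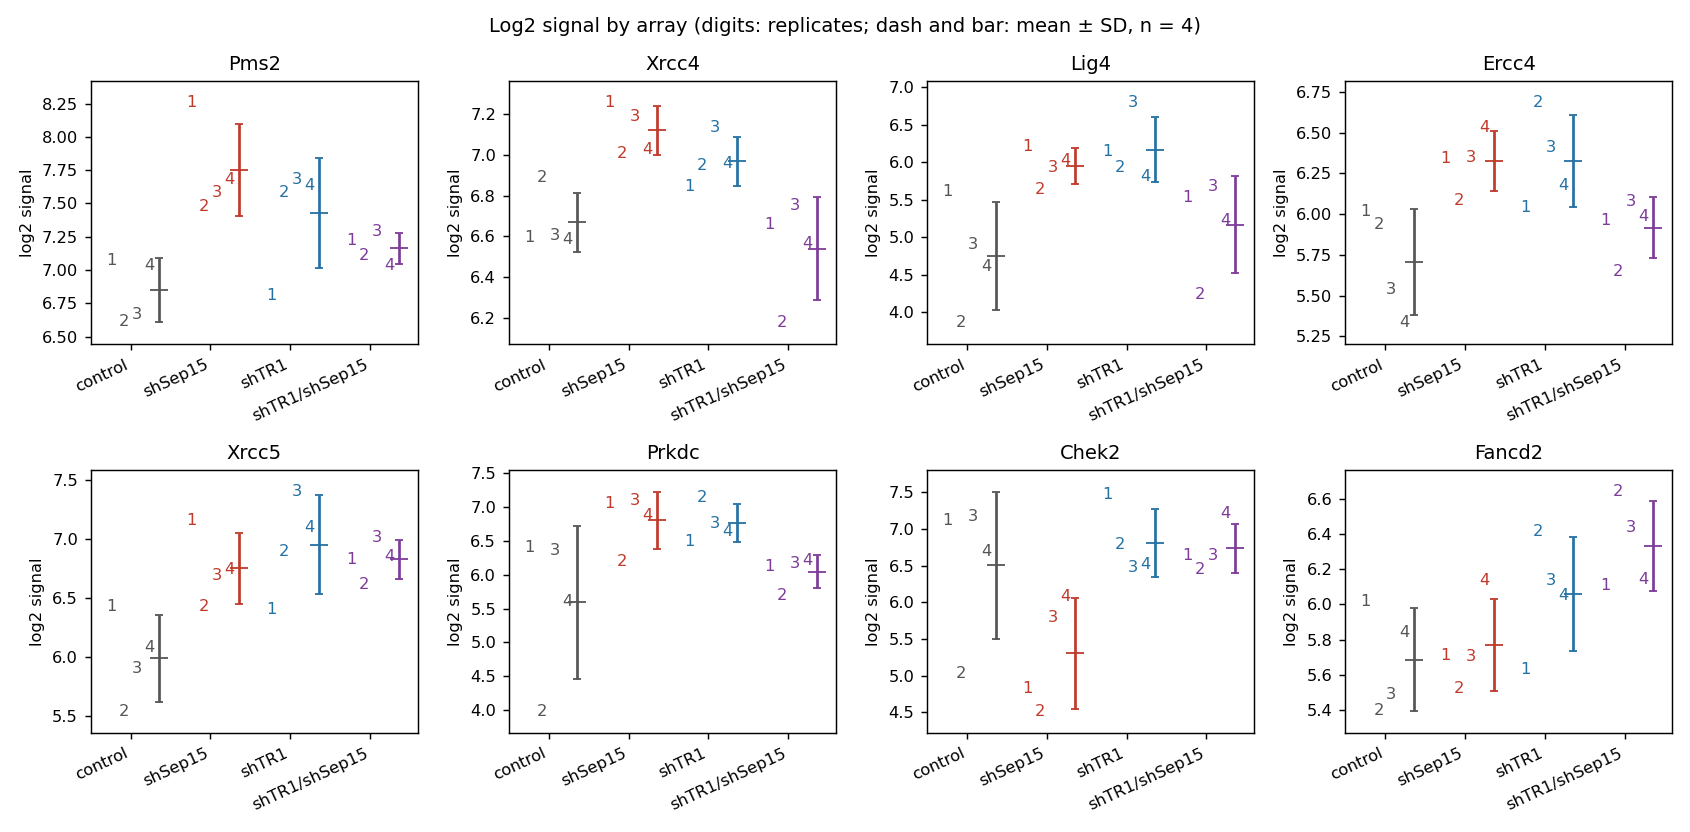
Log2 signal (vertical axis) of 8 repair genes in each line (horizontal axis). Digits are the replicate arrays, and the dash with its bar is the mean ± SD of 4 arrays. Lig4, Ercc4 and Pms2 were higher in the shSep15 arrays than in all control arrays, and their shTR1/shSep15 means were lower than the shSep15 means, while all shTR1/shSep15 arrays of Xrcc5 lay above control.

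Mismatch repair gave the only member past the adjusted threshold against control. Pms2, the endonuclease subunit of the MutL complex, had log2 signals of 7.07, 6.61, 6.67 and 7.04 in control, 8.25, 7.48, 7.58 and 7.68 in shSep15, 6.81, 7.58, 7.68 and 7.63 in shTR1, and 7.22, 7.11, 7.29 and 7.03 in shTR1/shSep15. All shSep15 arrays exceeded all control arrays and all shTR1/shSep15 arrays, and in shTR1 replicate 1 alone stayed at the control level. In shSep15 it was higher than control by 0.903 ± 0.201, 1.87-fold (adjusted p = 0.0322). In shTR1 the difference was 0.58 ± 0.201 (adjusted p = 0.278) and in shTR1/shSep15 0.32 ± 0.201 (adjusted p = 0.745). The shSep15 call was narrow. It ended without control replicate 2, 3 or 4 (adjusted p = 0.0622, 0.0775 and 0.0568) and without shSep15 replicate 1, 3 or 4 (adjusted p = 0.0927, 0.0682 and 0.0845), and the difference then ranged from 0.73 to 0.97. With the arrays of shSep15 and control alone its adjusted p was 0.095, and with the mean of its probe sets the difference was 0.43 (adjusted p = 0.0272). The other 2 probe sets of Pms2, both dimmer, gave 0.26 (adjusted p = 0.504) and 0.12 (adjusted p = 0.771).

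Msh3, which recognises loops of unpaired bases, is the member whose promoter held overlapping E2F letters. Its signals were 5.19, 5.75, 5.38 and 4.82 in control, 5.24, 4.58, 5.54 and 5.45 in shSep15, 5.34, 6.61, 6.26 and 5.502 in shTR1, and 5.13, 4.89, 5.34 and 5.22 in shTR1/shSep15. Its highest values were shTR1 replicates 2 and 3, and the shTR1 difference of 0.64 ± 0.28 did not pass (adjusted p = 0.399), with -0.08 and -0.14 in the other lines. Msh6, which recognises mismatched bases, differed by 0.19, 0.12 and 0.29 with an SE of 0.42.

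In nucleotide excision repair, 8 members were measured and their median differences were -0.05, -0.01 and 0.06 in shSep15, shTR1 and shTR1/shSep15, which without control replicate 2 became 0.05, 0.41 and 0.10. Ercc4, the nuclease that cuts on the 5′ side of a lesion together with Ercc1, had 6.02, 5.93, 5.54 and 5.33 in control, 6.34, 6.09, 6.35 and 6.53 in shSep15, 6.04, 6.68, 6.41 and 6.18 in shTR1, and 5.96, 5.64, 6.08 and 5.99 in shTR1/shSep15. As for Lig4, the 8 arrays of the lines with 1 hairpin lay above all control arrays. The differences were 0.62 ± 0.17 (adjusted p = 0.0891), 0.62 ± 0.17 (adjusted p = 0.168) and 0.21 ± 0.17 (adjusted p = 0.814). Without control replicate 1 the shSep15 difference passed at 0.72 (adjusted p = 0.0493). Its 3 other probe sets were dimmer, and their shSep15 differences were -0.02, 0.24 and 0.05. The mean of all its probe sets differed by 0.22 (adjusted p = 0.32).

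Ercc1, the partner of Ercc4 in that nuclease, did not run with it. It measured 10.38, 10.96, 11.504 and 11.03 in control, 10.83, 10.64, 10.19 and 10.06 in shSep15, 11.44, 10.25, 10.17 and 11.16 in shTR1, and 11.28, 11.56, 11.24 and 11.47 in shTR1/shSep15. All shSep15 arrays lay below all shTR1/shSep15 arrays, a difference of -0.96 ± 0.29 (adjusted p = 0.105), which passed when the arrays of these 2 lines were fitted alone (adjusted p = 0.0102), while the mean of its 4 probe sets differed by -0.54 (adjusted p = 0.0946). From control it differed by -0.54, -0.21 and 0.42, with adjusted p of 0.486, 0.764 and 0.765.

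Xpc, which detects distortions of the helix, had 5.998, 5.44, 6.07 and 5.54 in control, 6.52, 5.64, 6.37 and 6.24 in shSep15, 6.47, 6.26, 6.68 and 6.39 in shTR1, and 5.74, 5.42, 6.05 and 6.09 in shTR1/shSep15. The shTR1 arrays lay above all arrays of control and of shTR1/shSep15. The shTR1 difference was 0.69 ± 0.21 from control (adjusted p = 0.205) and 0.62 ± 0.21 from shTR1/shSep15 (adjusted p = 0.282), and shSep15 gave 0.43 ± 0.21 from control. Ercc5, the nuclease of the 3′ side, gave 7.62, 9.52, 8.18 and 7.29 in control, 8.53, 8.07, 8.36 and 8.15 in shSep15, 7.93, 7.58, 8.26 and 8.32 in shTR1, and 7.43, 6.91, 7.42 and 7.39 in shTR1/shSep15. The shTR1/shSep15 arrays were lowest, below every shSep15 and shTR1 array, with -0.86 ± 0.35 from control (adjusted p = 0.558). Without control replicate 2, its highest array, the difference was -0.41 (adjusted p = 0.985). Ercc2, Ercc3, Xpa and Ddb2 differed from control by -0.33 to 0.44 over the 3 lines, none past the adjusted threshold.

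Homologous recombination and break-end processing had 9 measured members. Of these 6, 8 and 7 were higher than control in shSep15, shTR1 and shTR1/shSep15 (46.3%, 45.8% and 52.9% of all genes). The medians were 0.16, 0.13 and 0.31 (0.02, 0.13 and 0.06 without control replicate 2), and none of the members passed the adjusted threshold. Brca2, the loader of the recombinase, measured 7.48, 6.195, 7.13 and 6.87 in control, 8.04, 6.81, 7.78 and 7.695 in shSep15, 7.42, 8.37, 7.95 and 7.43 in shTR1, and 7.41, 7.05, 7.56 and 7.41 in shTR1/shSep15. Every line overlapped control. The differences were 0.66 ± 0.299 (adjusted p = 0.373), 0.87 ± 0.299 (adjusted p = 0.272) and 0.44 ± 0.299 (adjusted p = 0.761). Rad51c, which assists the recombinase, was the lowest of the group by its mean over the 3 comparisons, with 6.92, 5.85, 6.33 and 6.77 in control, 6.37, 5.26, 6.45 and 6.59 in shSep15, 5.94, 6.41, 6.72 and 5.83 in shTR1, and 6.42, 6.28, 6.32 and 6.36 in shTR1/shSep15. It differed by -0.302, -0.24 and -0.12, and its arrays overlapped in all lines. Brca1, which directs resection, had the largest SE of the 44 members, 0.56, and differed by 0.16, 0.47 and 0.403. Rad51ap1, Rad54l, Rad50, Nbn, Blm and Wrn differed by -0.25 to 0.57.

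Of the 4 damage signalling kinases, Chek2 had the largest difference. Chek2, the kinase downstream of Atm, measured 7.12, 5.03, 7.17 and 6.69 in control, 4.82, 4.51, 5.797 and 6.08 in shSep15, 7.48, 6.79, 6.47 and 6.51 in shTR1, and 6.64, 6.44, 6.64 and 7.21 in shTR1/shSep15. In shSep15 all arrays lay below all shTR1/shSep15 arrays, and against control only control replicate 2, at 5.03, overlapped. The shSep15 line was lower than shTR1/shSep15 by a factor of 2.7 (log2 difference -1.43 ± 0.45, adjusted p = 0.12) and lower than control by a factor of 2.3 (-1.2 ± 0.45, adjusted p = 0.241). The first of these passed without control replicate 2 (adjusted p = 0.0203) and with the arrays of these lines alone (adjusted p = 0.031), at an unchanged difference. The second also passed without control replicate 2, at a larger difference of -1.69 (adjusted p = 0.0191). In shTR1 and shTR1/shSep15 the differences from control were 0.31 and 0.23, which without control replicate 2 turned to -0.18 and -0.26. Atr, the kinase of stalled replication, was the highest of the group by its mean over the 3 comparisons with control, with 6.79, 6.36, 5.77 and 6.42 in control, 7.45, 6.53, 6.35 and 6.38 in shSep15, 5.65, 7.098, 7.18 and 6.94 in shTR1, and 6.48, 5.94, 6.55 and 6.39 in shTR1/shSep15. It differed by 0.34 ± 0.33, 0.38 ± 0.33 and 0.01 ± 0.33, and shSep15 replicate 1 and shTR1 replicate 1 stood apart from the rest of their lines. Atm and Chek1, the remaining kinases, differed by -0.33 to 0.16.

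**Figure D2:**
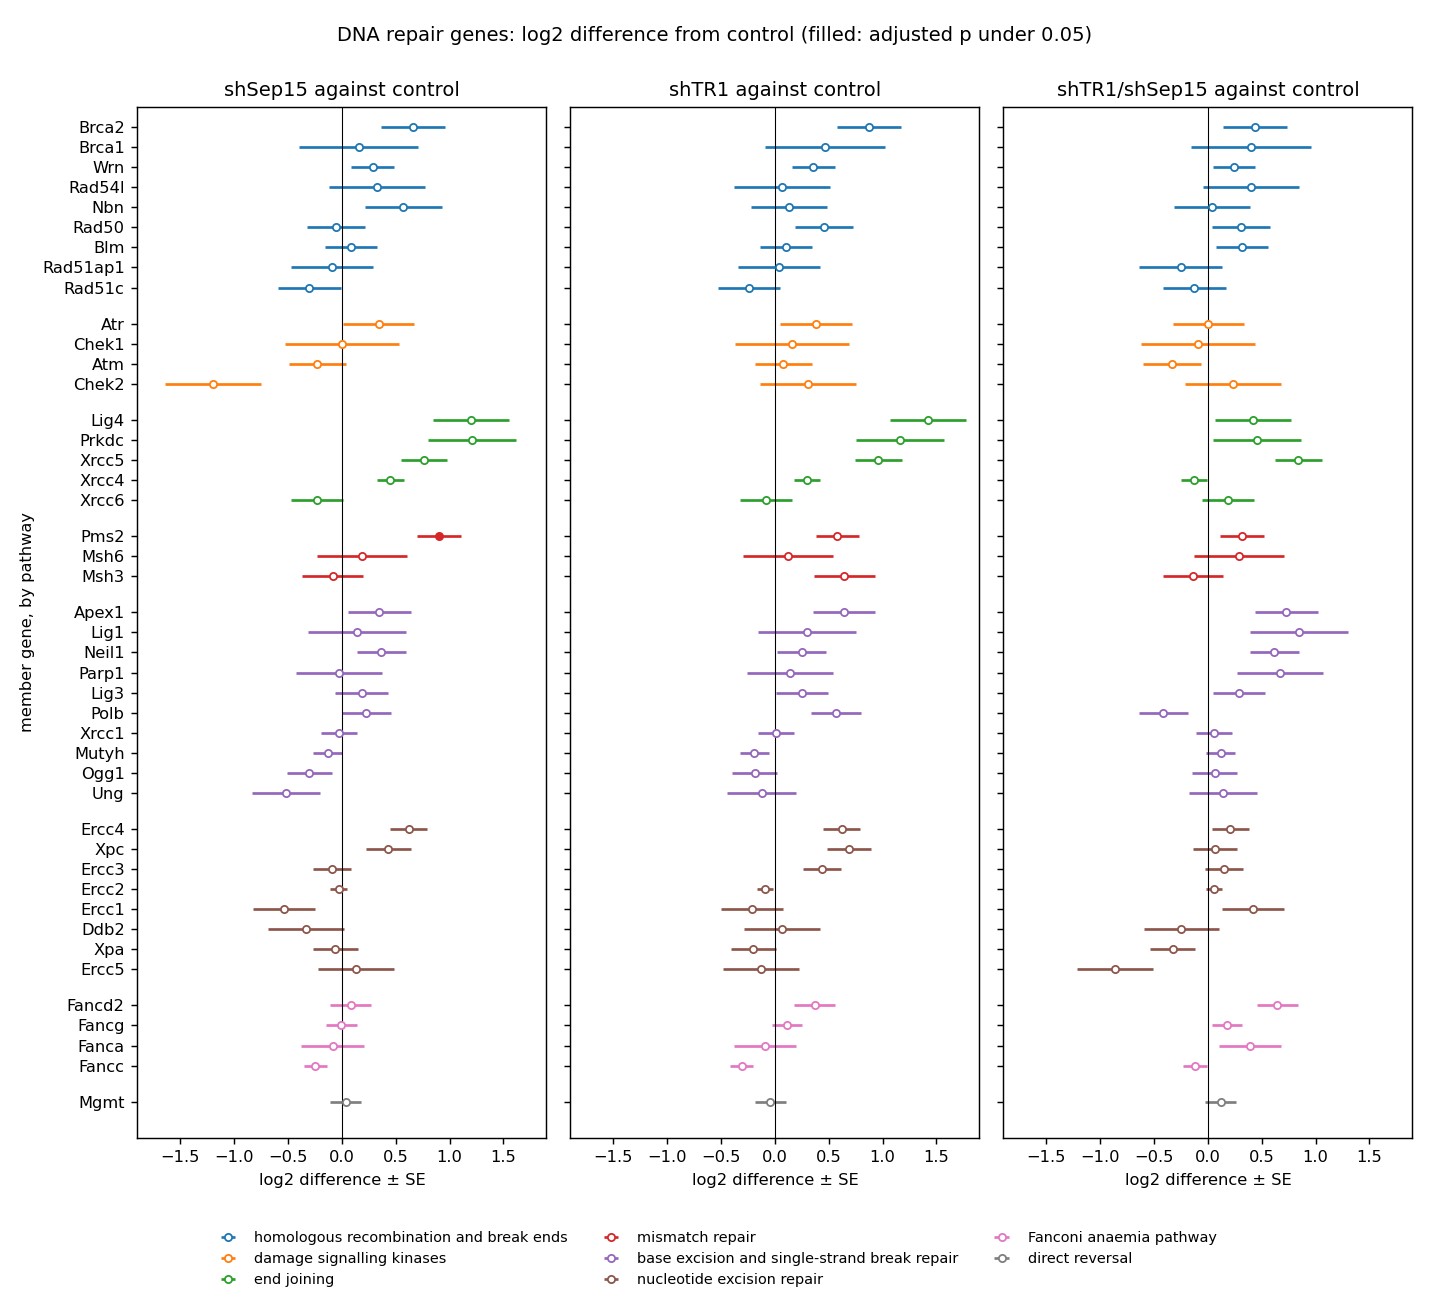
Log2 difference from control ± SE (horizontal axis) of the 44 measured repair genes (vertical axis), grouped by pathway and sorted within it by the mean over the 3 lines. The 3 panels share the control arrays. The single filled point is Pms2 in shSep15, 0.90 ± 0.20, and the end joining genes Lig4 and Prkdc reach beyond 1 in shSep15 and shTR1.

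Base excision and single-strand break repair had 10 members, 5, 7 and 9 of them higher than control in shSep15, shTR1 and shTR1/shSep15. Of all genes, 46.3%, 45.8% and 52.9% were higher. The medians of the 10 were 0.06, 0.19 and 0.22, which without control replicate 2 became -0.18, -0.18 and 0.09. In shSep15 against shTR1/shSep15, 9 of the 10 were lower, with a median of -0.31 beside -0.03 over all genes, and none passed the adjusted threshold. Of all genes, 43.2% were higher in that comparison. Of 19 S-phase genes and of 19 G2 and mitosis genes, 18 each were lower, with medians of -0.61 and -0.85. Apex1, the endonuclease that cuts at abasic sites, had 9.89, 9.04, 9.42 and 9.57 in control, 10.29, 9.27, 9.88 and 9.85 in shSep15, 9.63, 11.09, 10.07 and 9.68 in shTR1, and 10.11, 10.38, 10.34 and 9.99 in shTR1/shSep15. All shTR1/shSep15 arrays lay above all control arrays (0.73 ± 0.29, adjusted p = 0.543), and shSep15 and shTR1 differed by 0.35 and 0.64. Neil1, a glycosylase for oxidised bases, likewise had all shTR1/shSep15 arrays above control, with 4.98, 5.07, 5.43 and 4.68 in control, 5.71, 5.03, 5.41 and 5.48 in shSep15, 5.66, 5.76, 5.16 and 4.58 in shTR1, and 5.57, 5.59, 5.65 and 5.83 in shTR1/shSep15. Its differences were 0.62 ± 0.23 in shTR1/shSep15 (adjusted p = 0.514), 0.37 in shSep15 and 0.25 in shTR1.

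Lig1, the ligase of replication and long-patch repair, measured 9.098, 6.65, 7.71 and 8.93 in control, 8.39, 7.73, 8.25 and 8.58 in shSep15, 7.69, 9.06, 9.01 and 7.83 in shTR1, and 8.96, 9.07, 9.01 and 8.73 in shTR1/shSep15. The control arrays spanned more than 2 log2 units, and the shTR1/shSep15 arrays less than 0.5. The shTR1/shSep15 difference was 0.85 ± 0.46 (adjusted p = 0.681), which without control replicate 2 became 0.36. Ung, the uracil glycosylase, was the lowest of the group by its mean over the 3 comparisons with control, with 6.55, 4.96, 5.37 and 5.95 in control, 5.46, 4.496, 5.26 and 5.54 in shSep15, 5.27, 5.95, 5.995 and 5.12 in shTR1, and 5.85, 5.64, 5.93 and 5.99 in shTR1/shSep15. It differed from control by -0.52 ± 0.32, -0.12 ± 0.32 and 0.14 ± 0.32, and all shSep15 arrays lay below all shTR1/shSep15 arrays (-0.66, adjusted p = 0.394).

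Polb, the polymerase that fills the gap, was the only one of the 10 below control in shTR1/shSep15. Its signals were 8.71, 9.12, 9.25 and 8.48 in control, 9.095, 8.66, 9.43 and 9.28 in shSep15, 9.71, 8.95, 9.55 and 9.62 in shTR1, and 8.63, 7.96, 8.67 and 8.65 in shTR1/shSep15. All shTR1 arrays lay above all shTR1/shSep15 arrays, a difference of 0.98 ± 0.23 (adjusted p = 0.135), while the differences from control were 0.23, 0.57 and -0.41. All 4 of its probe sets gave the same direction in shTR1 against shTR1/shSep15, from 0.62 to 1.10, and their mean passed (0.92, adjusted p = 0.0385). Of the other members, Ogg1, the glycosylase for 8-oxoguanine, had all shSep15 arrays below all control arrays (-0.304 ± 0.21, adjusted p = 0.614). Xrcc1, Lig3, Mutyh and Parp1 differed from control by -0.19 to 0.67. For Lig3, a dimmer second probe set gave 0.82 in shSep15 (adjusted p = 0.0325), against 0.18 for the one used, so the probe sets of this gene disagreed.

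All 4 Fanconi anaemia genes were lower in shSep15 and in shTR1 than in shTR1/shSep15, with medians of -0.33 and -0.23, and none passed the adjusted threshold. Of all genes, 43.2% and 40.2% were higher in these comparisons. The S-phase genes had medians of -0.61 and -0.38, and the G2 and mitosis genes -0.85 and -0.71. These 2 comparisons share the shTR1/shSep15 arrays. Fancd2, the protein that is ubiquitylated at crosslinks, had 6.02, 5.398, 5.49 and 5.84 in control, 5.71, 5.53, 5.71 and 6.14 in shSep15, 5.63, 6.41, 6.14 and 6.05 in shTR1, and 6.11, 6.64, 6.44 and 6.14 in shTR1/shSep15. The shTR1/shSep15 arrays lay above all control arrays (0.64 ± 0.19, adjusted p = 0.384), with 0.08 in shSep15 and 0.37 in shTR1. With the mean of its 4 probe sets the shTR1/shSep15 difference was 0.27 (adjusted p = 0.48), and with the S-phase mean as a covariate 0.39 (adjusted p = 0.603). Fancc, a subunit of the core complex, gave 5.87, 6.09, 6.0 and 5.95 in control, 5.799, 5.95, 5.57 and 5.62 in shSep15, 5.66, 5.71, 5.82 and 5.503 in shTR1, and 5.697, 6.06, 5.88 and 5.81 in shTR1/shSep15. It was below all control arrays in shTR1 (-0.31 ± 0.11, adjusted p = 0.28). Fanca and Fancg, 2 other core subunits, differed from control by -0.09 to 0.39. Mgmt, which takes methyl groups from guanine, had 5.43, 5.85, 5.53 and 5.78 in control, 5.53, 5.93, 5.72 and 5.55 in shSep15, 5.83, 5.33, 5.47 and 5.796 in shTR1, and 5.698, 6.003, 5.796 and 5.58 in shTR1/shSep15. Its lines overlapped throughout, and the 95% intervals of its differences from control were -0.27 to 0.34, -0.35 to 0.26 and -0.19 to 0.43.

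Counted over the whole list, few members passed. At an adjusted p under 0.05 there was 1 of 44 in shSep15 against control (2.72% of all genes), 0 in shTR1 (0.275% of all genes), 0 in shTR1/shSep15 (0.0385%), 1 in shSep15 against shTR1/shSep15 (3.5%) and 0 in shTR1 against shTR1/shSep15 (0.11%). At an unadjusted limma p under 0.05, 7 members were higher and 2 lower in shSep15 (10.1% and 5.19% of all genes), 12 higher and 1 lower in shTR1 (9.08% and 4.88%), and 4 higher and 1 lower in shTR1/shSep15 (6.2% and 2.59%). Against shTR1/shSep15 the counts were 6 higher and 3 lower in shSep15 (8.3% and 7.18%) and 6 higher and 2 lower in shTR1 (6.61% and 4.73%). In shSep15 against shTR1/shSep15, where same-numbered arrays deviated together in all 4 pairs (correlations of 0.136 to 0.488), a fit of these lines alone with the replicate number as a block, added after seeing the data, called 14 members (16.3% of all genes), among them Xrcc4 (adjusted p = 0.011), Chek2 (0.00469) and Ercc1 (0.00891). Of the counts from the fit of all lines, the 12 of 44 higher in shTR1 lay furthest above its background. That count includes shTR1 replicates 2 and 4, whose Txnrd1 was at the control level, and it is not given without them. At the adjusted threshold, 0 members passed in shTR1 without these arrays (0.0605% of all genes). After a further quantile normalization, 24 of 44 members were higher in shTR1 at any p, in place of 32. By the ANOVA without moderation that the methods name, no member passed after adjustment in any comparison with control or in shTR1 against shTR1/shSep15, and 11 were past an unadjusted 0.05 in shTR1 (12.8% of all genes).

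Complete separation of arrays gave a similar picture. In shSep15, 4 members lay above all control arrays and 1 below (4.81% and 2.76% of all genes), in shTR1 4 and 1 (3.28% and 1.43%), and in shTR1/shSep15 4 and 0 (4.31% and 1.35%). Against the shTR1/shSep15 arrays, shSep15 had 4 members above and 8 below (8.27% and 9.5%), and shTR1 6 above and 1 below (5.32% and 4.09%). For each such gene the exact two-sided permutation test gives p = 0.0286, the smallest that 4 arrays against 4 allow.

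The direction over the list was near even in shSep15, while most members were higher in shTR1 and in shTR1/shSep15. Higher than control were 24 of 44 members in shSep15, 32 in shTR1 and 33 in shTR1/shSep15, where 46.3%, 45.8% and 52.9% of all genes were higher. The medians were 0.06, 0.15 and 0.18. After a further quantile normalization the shTR1 count was 24 of 44 and its median 0.07, and without control replicate 2 the 3 medians were 0.001, 0.10 and 0.06. The 77 other repair genes on the array, listed separately, had 44, 61 and 53 members higher, with medians of 0.10, 0.19 and 0.27, and none of them passed the adjusted threshold against control (5, 7 and 9 higher and 2, 1 and 1 lower at an unadjusted limma p under 0.05).

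The lines with 1 hairpin and with both can be compared for non-additivity, the difference of shTR1/shSep15 from control minus the sum of the shSep15 and shTR1 differences. A value of 0 means that the differences add on the log2 scale. Here 4 of 44 members passed, all of them negative (3.8% of all genes, either direction). At an unadjusted p under 0.05, 3 members were positive and 9 negative (7.43% and 11.5%). Xrcc4 gave -0.88 ± 0.17 (adjusted p = 0.0144), Lig4 -2.203 ± 0.502 (adjusted p = 0.0301), Ercc4 -1.03 ± 0.24 (adjusted p = 0.0345) and Pms2 -1.17 ± 0.28 (adjusted p = 0.0415). In each of them the lines with 1 hairpin were higher than control and the line with both was lower than either, by their means. Prkdc (-1.92), Polb (-1.21) and Xpc (-1.055) came next, with adjusted p of 0.0966, 0.063 and 0.0703, and Ercc1 was the highest positive value, 1.17 ± 0.41 (adjusted p = 0.16). The median over the members was -0.08, beside 0.07 over all genes, and turned to 0.05 after a further quantile normalization, with 25 of 44 members positive in place of 20.

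These calls differed in firmness. Xrcc4 passed with each of the 16 arrays left out in turn (adjusted p from 0.00674 to 0.0387), and its second probe set gave -1.36 (adjusted p = 0.0555). It did not pass with an intensity trend in the moderation (adjusted p = 0.0565) or after a further quantile normalization (adjusted p = 0.0521). Lig4 lost its call without control replicate 4, shSep15 replicate 1, 3 or 4, shTR1 replicate 3, or shTR1/shSep15 replicate 2 or 4 (adjusted p up to 0.0682). Ercc4 kept its call only where the array left out was control replicate 1 or 2, shSep15 replicate 2, shTR1 replicate 1 or shTR1/shSep15 replicate 3 (adjusted p up to 0.0834 without the others, and 0.174 with the mean of its probe sets), and Pms2 only where it was control replicate 1 or 2, shSep15 replicate 2 or shTR1 replicate 1 (adjusted p up to 0.0887). With shTR1 replicates 2 and 4 both left out none of the 4 passed, at adjusted p of 0.0644, 0.0608, 0.128 and 0.209 for Xrcc4, Lig4, Ercc4 and Pms2, while their differences stayed between -2.50 and -0.90. Among the 77 other repair genes, 3 passed, a share near the 3.8% of all genes. Atrip, the partner of Atr, gave -0.76 (adjusted p = 0.0326), Aptx, which cleans ends of single-strand breaks, -1.09 (adjusted p = 0.03), and H2ax, the histone variant marked at breaks, 1.23 (adjusted p = 0.0235). H2ax measured 8.02, 8.53, 7.57 and 7.71 in control, 7.19, 7.87, 7.52 and 7.68 in shSep15, 7.29, 7.64, 7.202 and 7.27 in shTR1, and 8.26, 8.05, 8.19 and 8.26 in shTR1/shSep15. Its shTR1/shSep15 arrays lay above those of both lines with 1 hairpin.

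**Figure D3:**
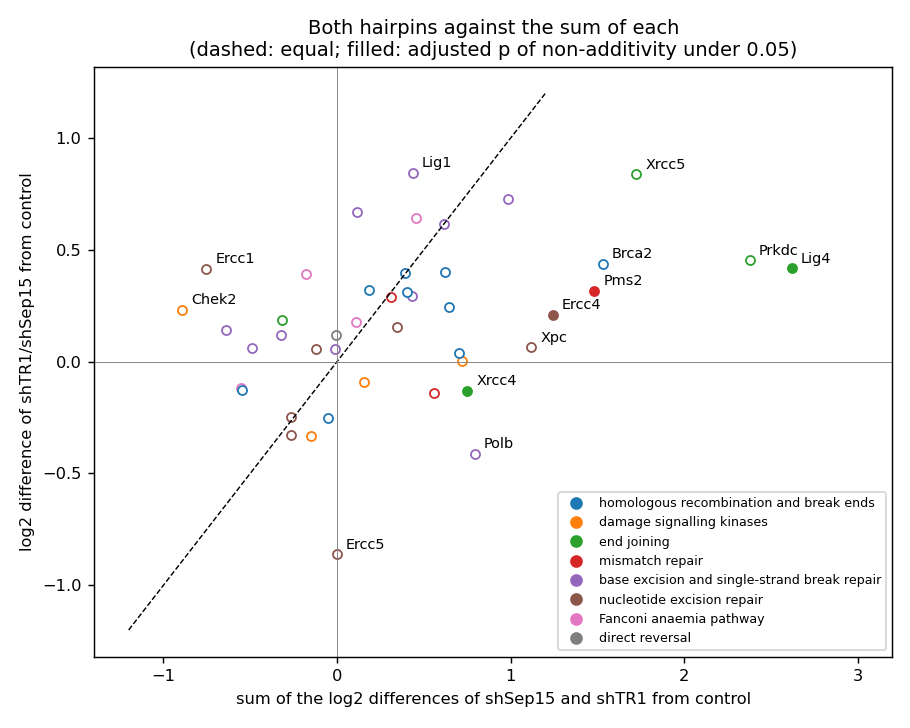
Log2 difference of shTR1/shSep15 from control (vertical axis) against the sum of the shSep15 and shTR1 differences from control (horizontal axis) for the 44 repair genes, coloured by pathway. The axes share the control arrays. On the dashed line the values are equal, and the 4 filled points, Xrcc4, Lig4, Ercc4 and Pms2, lie below it.

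Array-to-array variation within a line was large for many members and ran with that of S-phase genes. The mean of the 44 members was 7.04, 6.44, 6.65 and 6.77 in control, 6.96, 6.53, 6.91 and 6.96 in shSep15, 6.69, 7.22, 7.16 and 6.85 in shTR1, and 6.92, 6.73, 7.03 and 6.92 in shTR1/shSep15. The mean of 19 S-phase genes, none of them a member, was 9.001, 7.13, 7.74 and 8.71 in control, 8.35, 7.70, 8.33 and 8.47 in shSep15, 7.71, 8.97, 8.83 and 8.09 in shTR1, and 8.88, 8.71, 8.93 and 8.66 in shTR1/shSep15. Control and shTR1 arrays therefore spread over more than 1 log2 unit, and shTR1/shSep15 arrays over less than 0.5. The shTR1 replicates 2 and 3 were high and 1 and 4 low, which did not follow their Txnrd1 signal. Over the list of 19 G2 and mitosis genes the shTR1/shSep15 arrays lay between 9.20 and 9.42 and the shSep15 arrays between 8.36 and 8.72. The upper quartile of all probe sets also varied, with 6.673, 6.395, 6.46 and 6.419 in control and 6.58, 6.453, 6.645 and 6.726 in shSep15. In shTR1 it was 6.508, 6.761, 6.704 and 6.639, and in shTR1/shSep15 6.605, 6.353, 6.627 and 6.607. In each line its lowest array was also the lowest in the member mean. The part of this array-wide variation was not tested.

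**Figure D4:**
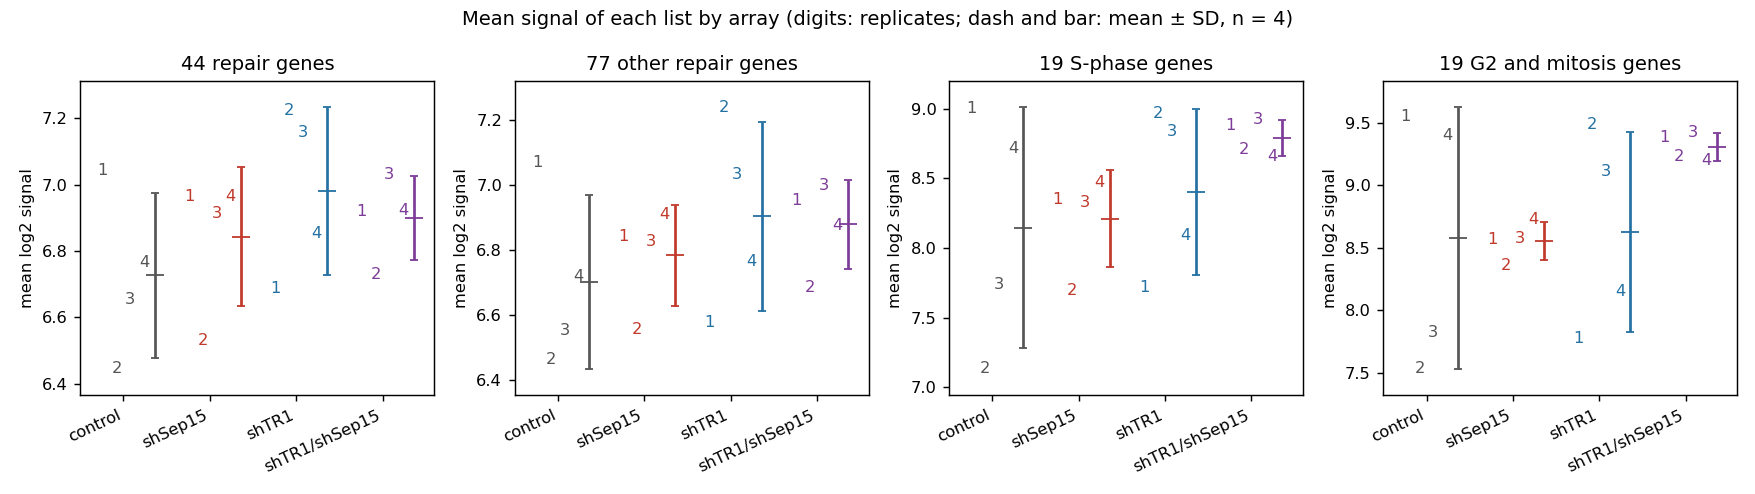
Mean log2 signal (vertical axis) of 4 gene lists on each array by line (horizontal axis), with digits for replicates and mean ± SD of 4 arrays. The repair lists and the cell cycle lists rise and fall on the same arrays in control and shTR1, and control replicate 2 is lowest in all 4 lists.

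Taken as deviations from the line means over the 16 arrays, the members' correlation with the S-phase mean had a median Pearson's r of 0.52, and 22 of 44 (50%) were over 0.5. Over all genes the median was -0.18 and 16.9% were over 0.5. A mean signal of at least 6 was reached by 33 of 44 members but by 8054 of 18193 genes. No background matched for signal was computed for the correlations. All values come from the same 16 jointly normalized arrays, and the correlations are a description. By pathway the median was 0.79 for homologous recombination, 0.69 for mismatch repair, 0.59 for end joining, 0.58 for base excision repair, 0.55 for the Fanconi pathway, 0.48 for the kinases and 0.02 for nucleotide excision repair, of whose 8 members none was over 0.5. Lig1 was highest at 0.98, followed by Ung, Parp1, Lig3 and Rad54l between 0.91 and 0.93. Ercc1 was lowest at -0.69, and Mgmt had -0.64. The 8 members whose promoter held the E2F letters ranged from 0.24 (Msh3) to 0.98 (Lig1) with a median of 0.68, and the 27 without them from -0.69 to 0.93 with a median of 0.48. Xrcc4, at -0.03, stood apart from the S-phase genes, whereas Pms2 and Lig4 had 0.69 and 0.59.

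**Figure D5:**
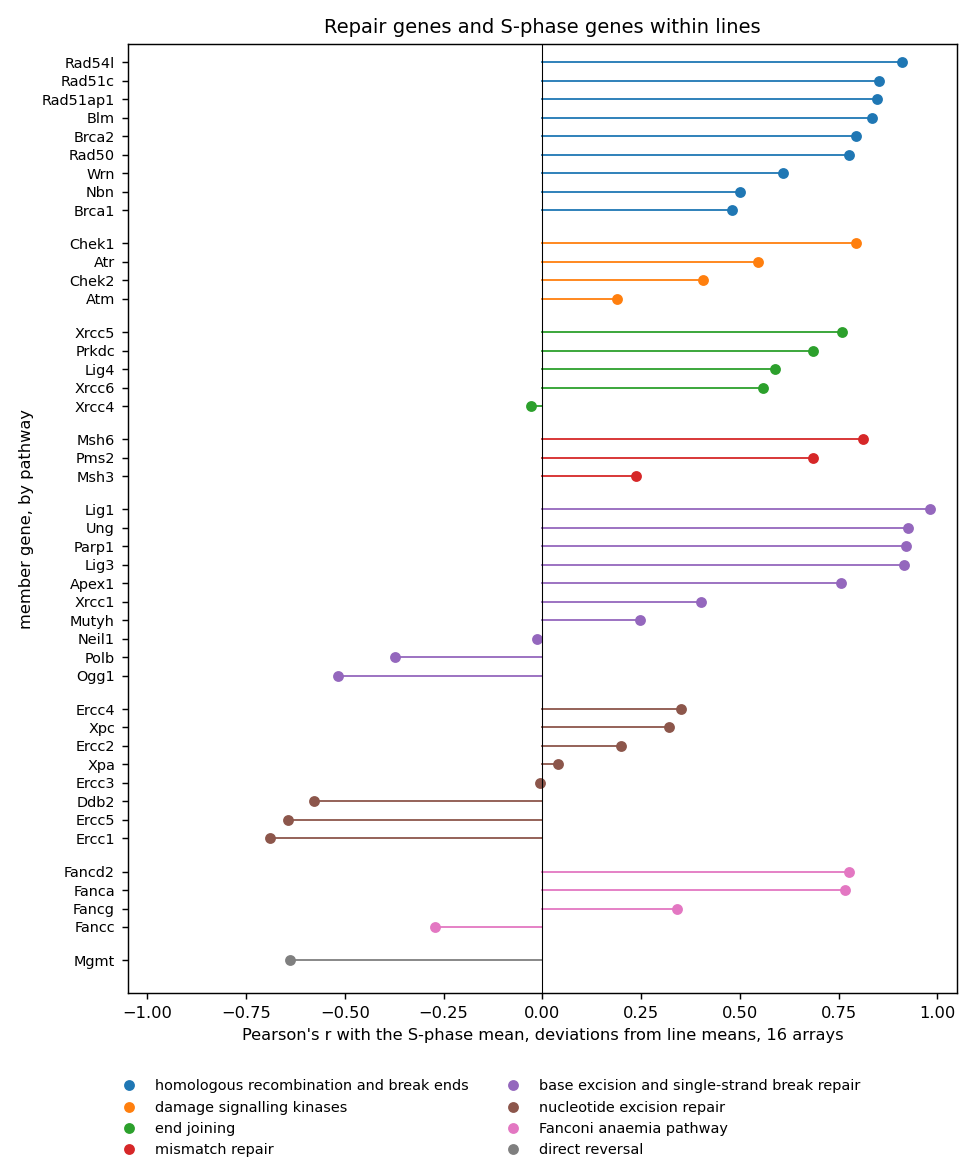
Pearson's r (horizontal axis) between each repair gene and the mean of 19 S-phase genes over 16 arrays, both as deviations from the line means, by gene (vertical axis) and pathway (colour). Homologous recombination genes lie between 0.48 and 0.91, and nucleotide excision repair genes between -0.69 and 0.35.

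With the S-phase mean as a covariate, an alternative chosen after seeing the data, 4 members passed in shSep15 against control (4.79% of all genes in the same fit), 1 in shTR1 (0.594%), 0 in shTR1/shSep15 (0.077%) and 10 for non-additivity (8.09%). Xrcc5 then passed in shSep15 (0.73, adjusted p = 0.0174) and in shTR1 (0.85, adjusted p = 0.0348), and Lig4 in shSep15 (1.16, adjusted p = 0.0472). The median over the members in shTR1/shSep15 against control changed from 0.18 to -0.05, and that in shSep15 against shTR1/shSep15 from -0.09 to 0.17. The S-phase mean was measured in the same arrays, and it differed between the lines.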

How the data were processed

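Total RNA of 16 CT26 samples, 4 per line, was labelled with biotin and hybridised to Affymetrix whole-genome mouse arrays. The authors deposited log2 signals per probe set after RMA (background correction, quantile normalization and median polish), which shrinks differences between arrays that affect most probe sets. The RMA version is not given in the sources used here. The number of arrays limits the precision. Of 45101 probe sets, 64 controls were left out and 45037 tested.

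Gene names came from the platform annotation, updated to RefSeq. In all, 34945 probe sets carried 1 symbol, 932 several and 9160 none. A gene was read from the probe set that carried its symbol alone with the highest mean over the 16 arrays. Levels of different probe sets were not compared. Groups were taken from GEO's labels. Limma 3.58.1 (R 4.3.3) was fitted to all 16 arrays with a mean per line, 6 contrasts and moderated variances (residual degrees of freedom 12, prior 2.58), with Benjamini-Hochberg adjustment over all probe sets and a threshold of 0.05. The fit was tested on simulated data. The study's methods name ANOVA, which was run as an alternative. The members and lists were chosen with earlier results of these data known, so no p was computed over a list. Per-array values are given for members past the threshold in any comparison, those of lowest unadjusted p per comparison (6 against control, 3 otherwise), and the highest and lowest of each pathway. Figures were drawn with matplotlib 3.10.9.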

Additional observations from a re-analysis of the deposited data

Results flagged for a closer look

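The line means of Xrcc4, Lig4, Pms2 and Ercc4 were non-additive by the test described above, at -0.88, -2.20, -1.17 and -1.03 on the log2 scale. None of these genes passed with shTR1 replicates 2 and 4 both left out. Their adjusted p and the arrays on which they rest are given above.

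Among 96 groups of 4 arrays (the named members and the list mean), 9 had an array whose gap to its nearest neighbour took more of the group's range than Dixon's 95% critical value. Chance flags about 1 in 20 groups. Replicate 2 of shTR1/shSep15 was apart for Prkdc (5.69), Ercc5 (6.91) and Polb (7.96), low in each. Replicate 2 of shSep15 was low for Rad51c (5.26) and for the mean of the 44 members (6.53). Replicate 1 was apart for Atr in shSep15 (7.45, high) and in shTR1 (5.65, low) and for Pms2 in shTR1 (6.81, low). Replicate 2 of control was high for Xrcc4 (6.89).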

How the results depend on the processing

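None of the 28 differences recomputed under every alternative changed sign. They were picked as past the threshold or of lowest unadjusted p in their comparison, so a kept sign says little about the other differences. Of all 132 differences of the members from control, 59 changed sign when some array was left out, 26 of them without control replicate 2. Counts of members are given with the share of all genes called in the same fit. With the methods' ANOVA without moderation, 8 members passed an unadjusted 0.05 in shSep15 against control (14.3%), 11 in shTR1 (12.8%), 5 in shTR1/shSep15 (7.57%), 8 in shSep15 against shTR1/shSep15 (14.3%), 8 in shTR1 against shTR1/shSep15 (10%) and 13 for non-additivity (17.8%), and after adjustment 0 in shSep15 (1.69%) and 1 for non-additivity (2.24%). An intensity trend left 0 in shSep15 (2.22%), 0 in shSep15 against shTR1/shSep15 (3.11%) and 1 for non-additivity (3.19%). The compared lines alone gave 0 in shSep15 (1.12%) and 6 in shSep15 against shTR1/shSep15 (10.7%). Array weights gave 6 in shSep15 (7.82%), 2 in shTR1 (0.731%), 9 and 1 in shSep15 and shTR1 against shTR1/shSep15 (14.8% and 2.81%) and 11 for non-additivity (12.7%). The Gapdh 3′ to 5′ covariate gave 0 in shSep15 against shTR1/shSep15 (1.43%) and 2 for non-additivity (2.98%), further quantile normalization 2 for non-additivity (3.64%), and the mean of a gene's probe sets 2 and 1 in shSep15 and shTR1 against shTR1/shSep15 (4.49% and 0.176%). Without shTR1 replicates 2 and 4, 0 passed for non-additivity (1.63%). Probe sets with a mean of at least 6, fitted alone, covered 33 members and 8054 genes, and the shares of genes called were higher. Of these members, 1 passed in shSep15 (5.89% of these genes), 1 in shSep15 against shTR1/shSep15 (7.29%) and 5 for non-additivity (8.26%).

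The cell cycle covariates were chosen after seeing the data. With the S-phase mean, 4, 1, 3 and 10 passed in shSep15, shTR1, shSep15 against shTR1/shSep15 (4.91%) and non-additivity, with the median at 0.1713 in shSep15 against shTR1/shSep15 and -0.0466 in shTR1/shSep15. With the G2 and mitosis mean the counts were 2, 1, 3 and 8 (4.6%, 0.863%, 4.04% and 7.33%), with medians of 0.1554 in shSep15 against shTR1/shSep15 and -0.3312 for non-additivity. The cause of these shifts was not tested.

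With each array left out in turn, counts ranged from 0 to 4 in shSep15, 0 to 2 in shTR1 (both highest without control replicate 1), 0 to 3 in shSep15 against shTR1/shSep15 and 1 to 7 for non-additivity (both highest without control replicate 2), and the shTR1 median from 0.0483 to 0.399 (lowest without shTR1 replicate 2, highest without control replicate 1). Deviations of same-numbered arrays correlated from -0.473 to 0.488. All 4 pairs were over 0.1 for shSep15 with shTR1/shSep15 alone (14 members called with the replicate block in these lines), and the labels do not say that a number marks anything shared. With the replicate block over all lines, 1 member passed in shTR1, Lig4 (adjusted p = 0.0386), 1 in shSep15, also Lig4 (0.0285) and not Pms2 (0.0705), and 4 for non-additivity, without Ercc4 (0.0748) and Pms2 (0.0825). The number of arrays limits all counts.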
